A study of Mus musculus with 12 samples.

Results

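Autophagy encloses cytoplasm in a double membrane and delivers it to lysosomes, and 36 genes of its machinery were followed here in sorted glia of the mouse hippocampus. The genes were a list written from knowledge of the pathway, matched by symbol to Ensembl identifiers, and all 36 were present in both raw count tables (27866 genes in the ACSA-2 table, 30359 in the CD11b table and 25442 in both). They were read by stage: 5 genes of the initiation complex, 6 of the nucleation complex, 5 of lipid supply and PI3P binding, 10 of the conjugation systems, 5 of the ATG8 family and 5 cargo receptors.

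Male C57Bl6/J mice received bilateral injections into CA1 at the age of 2 months and were studied 2 months later. The vector was an AAV of the 2/9 serotype with the GfaABC1D promoter, which is selective for astrocytes, driving either GFP (AAV-GFP, the control) or the murine adenosine A2A receptor (AAV-A2A), so that both groups carried a virus. Both hippocampi were dissociated, astrocytes were taken with magnetic beads against the surface antigen ACSA-2, and microglia were then taken from the unbound cells with beads against CD11b. Each fraction and vector had 3 libraries, named here by vector and label number. The ACSA-2 controls were GFP-303, GFP-306, GFP-307, beside A2A-309, A2A-310, A2A-313, and the CD11b controls GFP-2328, GFP-2329, GFP-2331, beside A2A-2343, A2A-2344, A2A-2347. The whole hippocampus was sorted whereas the vector was placed in CA1, so each library mixes cells within and outside the injected area, and a lower count of a gene can reflect less RNA per cell or fewer cells holding it, which cannot be told apart.

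The autophagosome forms when the ULK1 kinase complex, composed of ULK1 or ULK2 with ATG13, FIP200 (Rb1cc1) and ATG101, switches on a lipid kinase complex built on VPS34 (Pik3c3) and Beclin 1. The PI3P made there is bound by WIPI proteins, ATG9A vesicles and the lipid transfer proteins ATG2A and ATG2B feed the growing membrane, and a pair of ubiquitin-like conjugation systems attach ATG8 proteins (the LC3 and GABARAP families) to it. Receptors such as p62 (Sqstm1) then tie cargo to the ATG8 proteins, and the pathway is held in check by mTORC1 and switched on by AMPK when energy is low.

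Depth did not limit detection of these genes. The libraries held 33937067 to 53206974 counts on genes, of which the 36 genes took 0.316 to 0.349% in the ACSA-2 libraries and 0.249 to 0.362% in the CD11b libraries, and the lowest count of any of them in any library was 63 (Atg4c). The vector was visible in the labelled libraries, since Adora2a stood at 23.1 to 25.4 CPM in the AAV-GFP and 651 to 923 CPM in the AAV-A2A ACSA-2 libraries. In the CD11b libraries it was 3.78 to 8.28 CPM and 15.4 to 45.4 CPM. The 10 astrocyte markers summed to 24500 to 38100 CPM in the ACSA-2 and 299 to 536 CPM in the CD11b libraries, and the 10 microglia markers to 392 to 704 CPM and 9750 to 76200 CPM. All of these 20 markers had reads in each of the 4 groups. In 3 of the CD11b libraries, GFP-2328, GFP-2329 and A2A-2347, the 10 choroid plexus markers summed to 107000, 86600 and 59700 CPM, against 28.2 to 150.0 CPM in the other 3, and these were the libraries with the lowest microglia marker sums (9750, 20300 and 25400 CPM). They are called choroid-rich below, and the levels and main counts that involve CD11b cells are also given without them.

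Promoter sequence was available for 30 of the 36 genes (RefSeq, GRCm38.p6). The 250 bases before the annotated start are shown for the genes on which the comparisons turned, namely Atg9a and Atg4a, which were lower in AAV-A2A astrocytes, and Map1lc3b and Ulk2, which had the largest differences between the fractions in each direction. The A2A receptor raises cyclic AMP, and CREB binds the cyclic AMP response element TGACGTCA, of which TGACG is the shorter form. TFEB, a lysosomal and autophagy transcription factor, binds motifs built on CACGTG. Both TGACG with its reverse complement CGTCA and CACGTG were searched, and matches are in capitals.
Atg9a, chr1:75192011-75192260, minus strand: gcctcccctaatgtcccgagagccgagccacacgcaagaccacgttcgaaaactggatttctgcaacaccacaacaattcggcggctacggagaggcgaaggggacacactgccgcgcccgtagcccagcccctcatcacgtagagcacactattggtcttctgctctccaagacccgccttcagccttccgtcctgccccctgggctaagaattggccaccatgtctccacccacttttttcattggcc
Atg4a, start nearest the Ensembl gene, chrX:140956657-140956906, plus strand: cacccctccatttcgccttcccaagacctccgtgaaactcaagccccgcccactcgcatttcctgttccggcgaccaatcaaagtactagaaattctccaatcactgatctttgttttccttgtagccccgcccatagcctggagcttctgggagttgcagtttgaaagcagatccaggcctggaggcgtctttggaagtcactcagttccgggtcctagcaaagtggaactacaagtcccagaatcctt
Atg4a, start farther upstream, chrX:140953595-140953844, plus strand: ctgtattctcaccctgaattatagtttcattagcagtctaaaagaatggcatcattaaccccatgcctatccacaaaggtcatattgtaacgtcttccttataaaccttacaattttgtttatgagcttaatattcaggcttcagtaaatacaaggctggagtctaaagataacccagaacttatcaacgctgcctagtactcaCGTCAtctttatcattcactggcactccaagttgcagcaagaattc
Map1lc3b, chr8:121590188-121590437, plus strand: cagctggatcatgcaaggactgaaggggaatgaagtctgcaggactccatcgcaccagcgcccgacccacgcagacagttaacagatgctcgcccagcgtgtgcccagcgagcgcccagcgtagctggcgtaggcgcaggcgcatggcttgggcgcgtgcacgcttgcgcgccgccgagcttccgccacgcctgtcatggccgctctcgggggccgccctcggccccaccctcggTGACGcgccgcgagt
Ulk2, chr11:61855093-61855342, minus strand: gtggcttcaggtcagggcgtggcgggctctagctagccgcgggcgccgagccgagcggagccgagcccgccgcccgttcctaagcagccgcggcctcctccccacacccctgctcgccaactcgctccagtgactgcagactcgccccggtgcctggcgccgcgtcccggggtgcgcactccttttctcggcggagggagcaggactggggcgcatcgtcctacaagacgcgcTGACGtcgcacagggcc
Map1lc3b and Ulk2, opposite in their fraction difference, each held 1 match to TGACG close to the start, whereas the Atg9a window and the nearer Atg4a window held none. The 30 genes had 34 windows, since some genes have more than 1 start. TGACG or CGTCA stood in 11 of these 34 windows, each of another gene (Atg10, Atg13, Atg2b, Atg4a, Calcoco1, Gabarapl2, Map1lc3b, Nbr1, Pik3r4, Tax1bp1 and Ulk2), and in 17.8% of all 32851 windows of the same length. CACGTG was found in 3 of the 34 windows (Atg3, Atg5 and Atg7) and in 6.02% of all windows, and the whole TGACGTCA in none of the 34 and in 1.55% of all windows. The windows were not matched for base composition.

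Levels between genes were compared per length, as RPKM (counts scaled to the library by TMM over the 12 libraries and to the kilobases of exon). The ATG8 genes and the receptors made up most of the autophagy mRNA in both fractions. In the ACSA-2 libraries the ATG8 family held 47.1 to 53.9% of the summed RPKM of the 36 genes and the receptors 25.1 to 33.4%, against 20.4 to 47.9% and 30 to 35.8% in the CD11b libraries (20.4 to 34.1% and 31.3 to 35.8% without the choroid-rich libraries). The nucleation complex held 1.63 to 2.21% in the ACSA-2 and 3.72 to 10.4% in the CD11b libraries (5.78 to 10.4% without the choroid-rich ones). Sqstm1, encoding the receptor p62, was the highest gene of both fractions, followed by the ATG8 genes Map1lc3a and Gabarap.

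Values are given in the order of the libraries above. Sqstm1 stood at 265, 317 and 299 RPKM in the AAV-GFP and at 259, 226 and 304 RPKM in the AAV-A2A astrocytes. In the CD11b libraries it was 225, 224 and 203 RPKM with AAV-GFP and 224, 198 and 190.0 RPKM with AAV-A2A. Its level thus varied little among libraries, and the vector groups overlapped in both fractions. Gabarap, an ATG8 protein of late steps of autophagosome formation, was 218, 184 and 165 RPKM in the AAV-GFP and 211, 189 and 185 RPKM in the AAV-A2A astrocytes, and 124, 127 and 139 RPKM and 144, 76.7 and 78.8 RPKM in the respective CD11b libraries. Among the AAV-A2A CD11b libraries, A2A-2343 lay above and the other 2 lay below every AAV-GFP library.

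Map1lc3a, encoding LC3A, was steady in astrocytes, at 210.0, 177 and 188 RPKM with AAV-GFP and 206, 207 and 167 RPKM with AAV-A2A. In the CD11b libraries it spread far more, with 259, 201 and 68.3 RPKM in AAV-GFP and 53.0, 38.4 and 109 RPKM in AAV-A2A. The 3 highest of these 6 values were those of the 3 choroid-rich libraries. The levels of Map1lc3a and Gabarap lay within each other's spread over all libraries of a fraction (192 ± 18.2 and 192 ± 19.6 RPKM in ACSA-2, 121 ± 89.1 and 115 ± 29.7 RPKM in CD11b, SD, n = 6). Without the choroid-rich libraries Map1lc3a was lower than Gabarap in CD11b cells, at 53.2 ± 14.9 against 120 ± 37.3 RPKM (SD, n = 3), and their ranges (38.4 to 68.3 and 76.7 to 144 RPKM) did not overlap.

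At the low end in astrocytes were Pik3r4 (0.702 ± 0.198 RPKM), Atg2b (0.831 ± 0.584 RPKM) and Atg4c (1.02 ± 0.64 RPKM, SD, n = 6), whose spreads overlapped. Pik3r4 encodes VPS15, the regulatory subunit of the VPS34 complex, and was 0.648, 1.06 and 0.704 RPKM with AAV-GFP and 0.644, 0.462 and 0.688 RPKM with AAV-A2A. Atg4c, a protease of the family that trims ATG8 proteins, was 2.13, 0.614 and 1.43 RPKM with AAV-GFP and 0.696, 0.441 and 0.82 RPKM with AAV-A2A. Atg2b, a lipid transfer protein, was 1.87, 0.492 and 1.11 RPKM against 0.743, 0.293 and 0.473 RPKM. The vector groups overlapped for each of these genes. In the CD11b libraries the lowest genes were Atg2b (1.43 ± 1.04 RPKM), Atg4a (2.93 ± 1.41 RPKM) and Wipi1 (2.94 ± 1.09 RPKM, SD, n = 6), again with overlapping spreads. Atg2b was 0.923, 0.867 and 0.534 RPKM with AAV-GFP and 0.857, 2.2 and 3.19 RPKM with AAV-A2A, where A2A-2343 lay among the controls. Wipi1, a PI3P-binding protein, was 3.47, 2.08 and 4.9 RPKM with AAV-GFP and 2.04, 2.7 and 2.47 RPKM with AAV-A2A, without separation of the groups. Without the choroid-rich libraries the lowest genes were Atg2b, Atg4a and Optn, at 1.2 ± 0.881, 2.03 ± 0.477 and 2.92 ± 0.754 RPKM, with Wipi1 at 3.21 ± 1.5 RPKM (SD, n = 3).

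**Figure D1:**
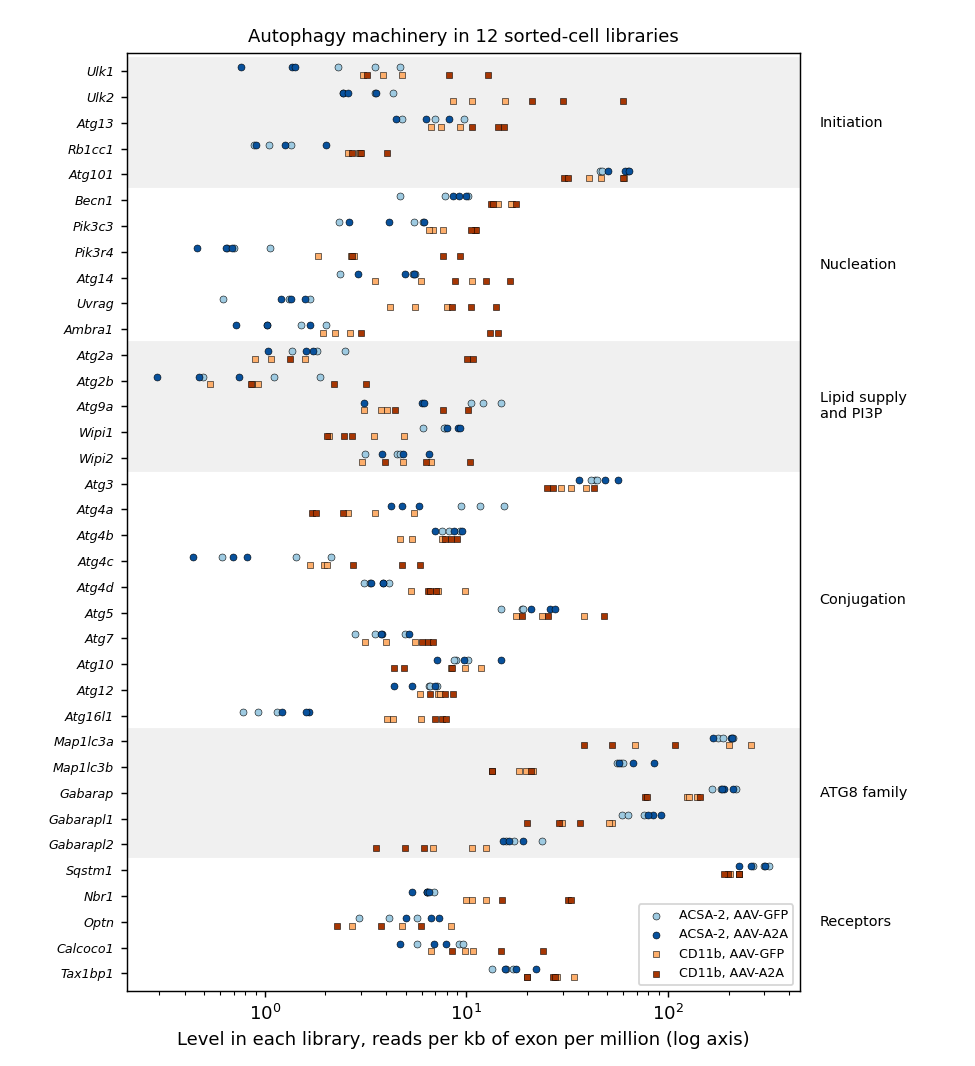
Level of each of the 36 autophagy genes (rows, grouped by stage) in each of the 12 libraries, in RPKM on a log axis. Circles are ACSA-2 and squares CD11b libraries, light for AAV-GFP and dark for AAV-A2A. Sqstm1, Map1lc3a and Gabarap lie farthest right, and in nucleation genes such as Uvrag all squares lie to the right of all circles.

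In astrocytes, 2 of the 36 autophagy genes were downregulated upon A2A receptor upregulation and none was upregulated. They were Atg9a, encoding the multispanning membrane protein of the vesicles that seed autophagosomes, and Atg4a, a protease that processes ATG8 proteins, and they were 2.39-fold and 2.41-fold lower. Over all genes tested by edgeR, 3.19% were called lower (threshold 0.05 for the adjusted p and 0.32 for the size of the log2 FC). The initiation kinase Ulk1 had the lowest log2 FC of the 36 but missed the threshold of edgeR. No nucleation, ATG8 or receptor gene passed with either tool.

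Atg9a (chr1:75180860-75192196) stood at 12.1, 10.5 and 14.8 RPKM in the AAV-GFP and at 6.04, 3.12 and 6.13 RPKM in the AAV-A2A astrocytes. All 3 AAV-A2A libraries lay below all 3 controls (5.1 ± 1.71 against 12.4 ± 2.15 RPKM, SD, n = 3). The log2 FC was -1.26 (SE 0.29), with an adjusted p of 0.046 by edgeR and 0.00115 by DESeq2. Exons of the neighbouring genes Ankzf1 and Gm29253 cover 32.6% of the exon bases of Atg9a, where a read cannot be given to either gene without strand. Ankzf1 itself had a log2 FC of -0.32 (adjusted p = 0.782, edgeR).

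Atg4a (chrX:140956907-141164270) was 15.4, 11.7 and 9.4 RPKM with AAV-GFP and 5.82, 4.22 and 4.79 RPKM with AAV-A2A, again without overlap (12.2 ± 3.02 against 4.94 ± 0.815 RPKM, SD, n = 3). Its log2 FC was -1.27 (SE 0.28), with an adjusted p of 0.0372 by edgeR and 0.000297 by DESeq2. Of the 50-base stretches of its transcripts, 51.2% also occur in other genes, mainly the pseudogene Atg4a-ps, so that its count of uniquely aligned reads covers only a part of the transcript. The pseudogene had 3 to 9 reads per ACSA-2 library. None of the other ATG4 proteases was called. Atg4b had a log2 FC of 0.04 (SE 0.2) and Atg4d of 0.11 (SE 0.23), and the low Atg4c one of -1.06 with a large error (SE 0.61, adjusted p = 0.546, edgeR).

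Ulk1 (chr5:110784488-110810097), the kinase that starts autophagosome formation, was 4.68, 2.3 and 3.54 RPKM with AAV-GFP and 1.36, 1.42 and 0.764 RPKM with AAV-A2A. The groups did not overlap (3.51 ± 1.19 against 1.18 ± 0.363 RPKM, SD, n = 3). The log2 FC of -1.54 (SE 0.37) had an adjusted p of 0.0571 by edgeR and of 0.00153 by DESeq2, which called 3 of the 36 genes lower, Ulk1, Atg9a and Atg4a, beside 5.58% of all genes. Its paralogue Ulk2 was at a log2 FC of -0.24 (SE 0.3). The other subunits of the initiation complex, Atg13, Rb1cc1 and Atg101, had values between -0.15 and 0.38.

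With TMM scaling within the table, groups without overlap were seen for 7 of the 36 genes, beside 19.5% of all genes tested. These were Ulk1, Atg9a and Atg4a below the controls, and Wipi1, Atg5, Atg16l1 and Gabarapl1 above them. Atg5, which joins ATG12 in the conjugate that directs ATG8 lipidation, had a log2 FC of 0.52 (adjusted p = 0.321, edgeR), and Atg16l1, which places that conjugate on the membrane, one of 0.68 (adjusted p = 0.399, edgeR). Gabarapl1 had a log2 FC of 0.40 (adjusted p = 0.361, edgeR). None of the 4 passed the test.

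By stage, the median log2 FC was -0.15 for initiation, -0.02 for nucleation, -0.34 for lipid supply, 0.13 for conjugation, 0.08 for the ATG8 family and -0.08 for the receptors, beside 0.02 for all genes tested and 0.04 for the 36 genes. In nucleation, Becn1, the scaffold of the VPS34 complex, was at 0.32 (SE 0.27), Pik3c3 at -0.07 (SE 0.42) and Atg14, which directs the complex to autophagy, at 0.04 (SE 0.38). In the ATG8 family the values lay between -0.14 (Gabarapl2) and 0.40 (Gabarapl1). Among receptors, Optn, a receptor of mitophagy, had the highest value at 0.61 (SE 0.31, adjusted p = 0.464, edgeR), and Calcoco1, an endoplasmic reticulum receptor, the lowest at -0.30.

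The calls on Atg9a and Atg4a rested on all 6 libraries. Neither passed when any 1 library was left out (adjusted p by edgeR between 0.0837 and 0.181 for Atg9a and between 0.0523 and 0.146 for Atg4a), or in a joint fit of the 12 libraries, with adjusted p of 0.155 and 0.157, while the log2 FC lay between -1.43 and -1.0 with 1 library left out. Gene length moved with the vector, since the median log2 deviation of genes with over 6095 bases of exon, minus that of genes with up to 2120, was 0.07 to 0.19 in the AAV-GFP and -0.16 to -0.09 in the AAV-A2A ACSA-2 libraries. With the length trend of each library removed, Atg4a stayed called (log2 FC -1.36, adjusted p = 0.033, edgeR) and Atg9a did not (-1.1, adjusted p = 0.0682), with Ulk1 at -1.38 (adjusted p = 0.0973). The summed levels of all 10 cell type marker lists overlapped between the vector groups in ACSA-2, and 2 of 6 neutrophil and monocyte markers in both tables were at 0 in the AAV-A2A libraries. Of single markers, edgeR called 1 of 10 endothelial and 1 of 9 tested oligodendrocyte markers for the vector.

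**Figure D2:**
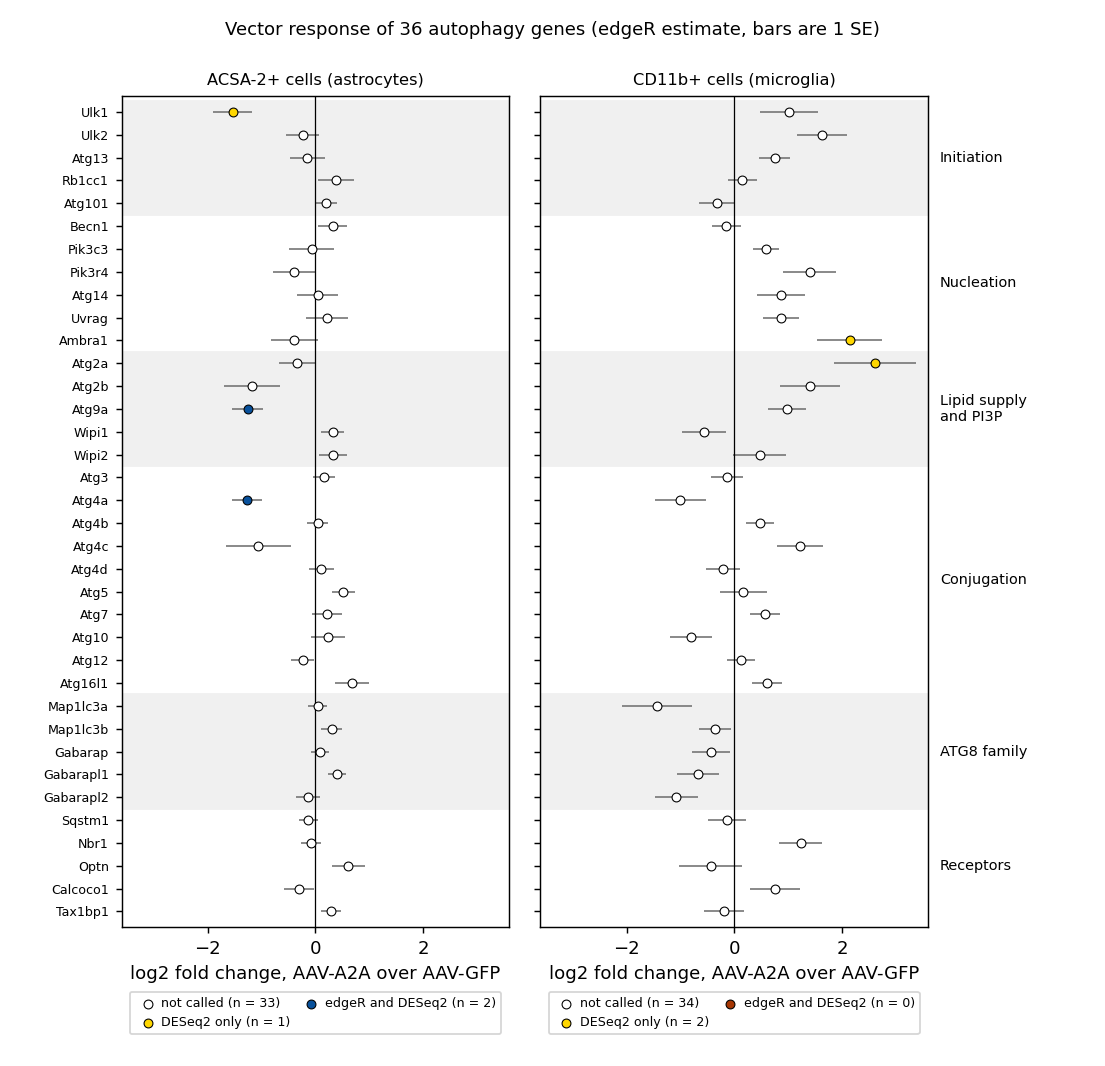
Log2 fold change of AAV-A2A over AAV-GFP for each of the 36 genes, with 1 standard error, in ACSA-2+ (left) and CD11b+ cells (right), 3 libraries per group. Filled points passed edgeR and DESeq2, yellow points passed DESeq2 only and open points neither. Atg9a and Atg4a are the filled points on the left, and on the right Atg2a and Ambra1 lie farthest to the right.

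Other genes of the pathway were taken from 4 lists (26 upstream regulators, 18 further core factors, 17 selective autophagy factors and 15 fusion factors, 76 in all). In astrocytes edgeR called 4 of the 76 lower and none higher, with a median log2 FC of -0.11, beside 3.19% lower among all genes. Prkaa1, the catalytic alpha 1 subunit of AMPK, fell from 19.6, 14.5 and 20.2 RPKM in AAV-GFP to 6.37, 3.08 and 3.03 RPKM in AAV-A2A (log2 FC -2.10, SE 0.32, adjusted p = 0.00643, edgeR). Mtor, the kinase of mTORC1 that holds autophagy back, fell from 4.13, 6.59 and 7.36 to 2.71, 1.7 and 2.16 RPKM (log2 FC -1.43, SE 0.28, adjusted p = 0.0224, edgeR). Both upstream kinases, of opposite action on autophagy, were thus lower in every AAV-A2A library than in any control.

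Of the selective autophagy factors, Ncoa4, the receptor that delivers ferritin to autophagosomes, fell from 9.77, 11.7 and 12.0 to 3.27, 2.05 and 2.98 RPKM (log2 FC -1.98, SE 0.23, adjusted p = 0.0024, edgeR). Wdfy3, encoding the large aggregate adaptor ALFY, fell from 18.1, 12.7 and 14.3 to 4.83, 4.5 and 3.6 RPKM (log2 FC -1.77, SE 0.2, adjusted p = 0.00226, edgeR). Neither gene's groups overlapped. Prkaa1, Ncoa4 and Wdfy3 passed in all 6 leave-one-out fits and Mtor in 2 of them, and DESeq2 called all 4. No further core factor and no fusion factor was called by edgeR or by DESeq2 in astrocytes.

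In microglia none of the 36 autophagy genes passed edgeR's test, and neither did any other of the 16949 genes tested. DESeq2 called 2 of them higher, Atg2a, a lipid transfer protein, and Ambra1, a scaffold that links initiation to Beclin 1, beside 1.52% of all genes higher. By sign alone, 13 of the 16 initiation, nucleation and lipid supply genes had positive values, beside 8119 of all 16949 genes tested. All 5 ATG8 genes had negative values, beside 8830 of all genes. Unadjusted p was under 0.05 for 11 genes with a positive and 1 with a negative value, beside 9.68% and 6.27% of all genes.

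Atg2a (chr19:6241668-6262335) was 1.07, 0.892 and 1.59 RPKM in GFP-2328, GFP-2329 and GFP-2331, and 1.34, 10.8 and 10.1 RPKM in A2A-2343, A2A-2344 and A2A-2347. The high values were those of 2 libraries, and A2A-2343 lay among the controls. The log2 FC was 2.62 (SE 0.76), with an adjusted p of 0.28 by edgeR and of 0.0375 by DESeq2. Ambra1 (chr2:91730134-91918849) showed the same arrangement, with 1.94, 2.23 and 2.66 RPKM in AAV-GFP and 2.99, 13.1 and 14.4 RPKM in AAV-A2A (log2 FC 2.14, SE 0.6, adjusted p = 0.28 by edgeR and 0.0454 by DESeq2). Here A2A-2343 stood just above the highest control.

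Several other genes were highest in the same 2 AAV-A2A libraries. Ulk2 was 8.58, 10.7 and 15.6 RPKM with AAV-GFP and 21.2, 60.1 and 30 RPKM with AAV-A2A (log2 FC 1.63, adjusted p = 0.28, edgeR). Pik3r4 was 2.68, 1.84 and 2.77 RPKM against 2.71, 9.32 and 7.64 RPKM (log2 FC 1.40, adjusted p = 0.286, edgeR), and the ubiquitin-binding receptor Nbr1 12.5, 10 and 10.7 RPKM against 15, 32 and 33 RPKM (log2 FC 1.23, adjusted p = 0.28, edgeR). Of these 3 genes, Ulk2 and Nbr1 had no overlap and Pik3r4 had. Pik3c3 was arranged otherwise, with 6.85, 7.68 and 6.54 RPKM in AAV-GFP and 11, 11.2 and 10.6 RPKM in AAV-A2A, so that A2A-2343 was as high as the other 2 (log2 FC 0.59, adjusted p = 0.305, edgeR). Atg9a, lower in AAV-A2A astrocytes, was 3.12, 3.78 and 4.05 RPKM in AAV-GFP and 4.43, 10.2 and 7.62 RPKM in AAV-A2A microglia (log2 FC 0.98, adjusted p = 0.288, edgeR), also without overlap. With TMM scaling within the table, 13 of the 36 genes had groups without overlap, 11 higher and 2 lower, beside 23.6% of all genes. Atg4a, the other gene lower in AAV-A2A astrocytes, was 5.48, 3.53 and 2.58 RPKM in AAV-GFP and 1.72, 1.8 and 2.45 RPKM in AAV-A2A microglia (log2 FC -1.0, SE 0.47, adjusted p = 0.35, edgeR), apart by a narrow margin on this scale and overlapping with TMM within the table.

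In the ATG8 family the log2 FC was -1.43 for Map1lc3a (SE 0.65), -1.08 for Gabarapl2 (SE 0.4), -0.68 for Gabarapl1 (SE 0.39), -0.43 for Gabarap (SE 0.35) and -0.36 for Map1lc3b (SE 0.29). The smallest adjusted p of the 5 was 0.288 by edgeR, for Gabarapl2. That gene, a GABARAP family member also called GATE-16, was 10.7, 12.5 and 6.84 RPKM in AAV-GFP and 6.16, 3.55 and 4.96 RPKM in AAV-A2A microglia, so that every AAV-A2A library was below every control. By stage the median log2 FC was 0.75 for initiation, 0.87 for nucleation, 0.98 for lipid supply, 0.15 for conjugation, -0.68 for the ATG8 family and -0.14 for the receptors, beside -0.05 for all genes tested. Sqstm1 was at -0.14 (SE 0.35).

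Other measures moved with these values. The same difference between long and short genes was -0.41 to -0.28 in the AAV-GFP libraries, -0.02 in A2A-2343, and 0.55 and 0.53 in A2A-2344 and A2A-2347, and 17 of the 36 autophagy genes were among the long genes (over 6095 bases of exon) and 5 among the short (up to 2120). The short genes included Map1lc3a, Gabarap and Gabarapl1 of the ATG8 family, with 1181, 1844 and 2013 bases. Of the same family, Gabarapl2 (log2 FC -1.08) had 2325 bases, between the classes. Map1lc3b (log2 FC -0.36) had 7517 and was among the long genes. Summed markers of erythrocytes were 1010 to 5980 CPM with AAV-GFP and 58.5 to 252 CPM with AAV-A2A, those of endothelial cells 781 to 1950 and 515 to 728 CPM, those of ependymal cells 191 to 379 and 45.9 to 125 CPM, and those of neurons 25.9 to 118 and 5.19 to 11.7 CPM, with 1 of 10 neuronal markers at 0 in AAV-A2A. The part of length and of these cells in the values above was not tested.

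Without the 3 choroid-rich libraries a single control, GFP-2331, was left against 2 AAV-A2A libraries, too few to judge a call, and only values are given. Map1lc3a then had a log2 FC of -0.60, and 0.02 with only GFP-2328 and GFP-2329 left out, again against that 1 control. With the length trend removed, none of the 36 and none of all genes was called by edgeR. The log2 FC in that fit was 0.14 for Gabarap and -0.67 for Map1lc3a. With A2A-2343 as the single AAV-A2A library, Ulk1, at 1.02 with all libraries, was at -0.35, Atg2a at 0.13 and Ambra1 at 0.34, whereas Pik3c3 was at 0.58, Atg14 at 0.85 and Atg16l1 at 0.60. Of the 76 other autophagy genes none was called by edgeR in microglia, and DESeq2 called 5 higher, beside 1.52% of all genes, namely Rubcn, Zfyve1, Plekhm1, Vps18 and Vps39. Plekhm1, Vps18 and Vps39 act in the fusion of autophagosomes with lysosomes, and Vps39 was 3.37, 4.08 and 6.48 RPKM with AAV-GFP and 10.2, 22.6 and 11.9 RPKM with AAV-A2A (log2 FC 1.64, adjusted p = 0.28 by edgeR and 0.0466 by DESeq2).

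**Figure D3:**
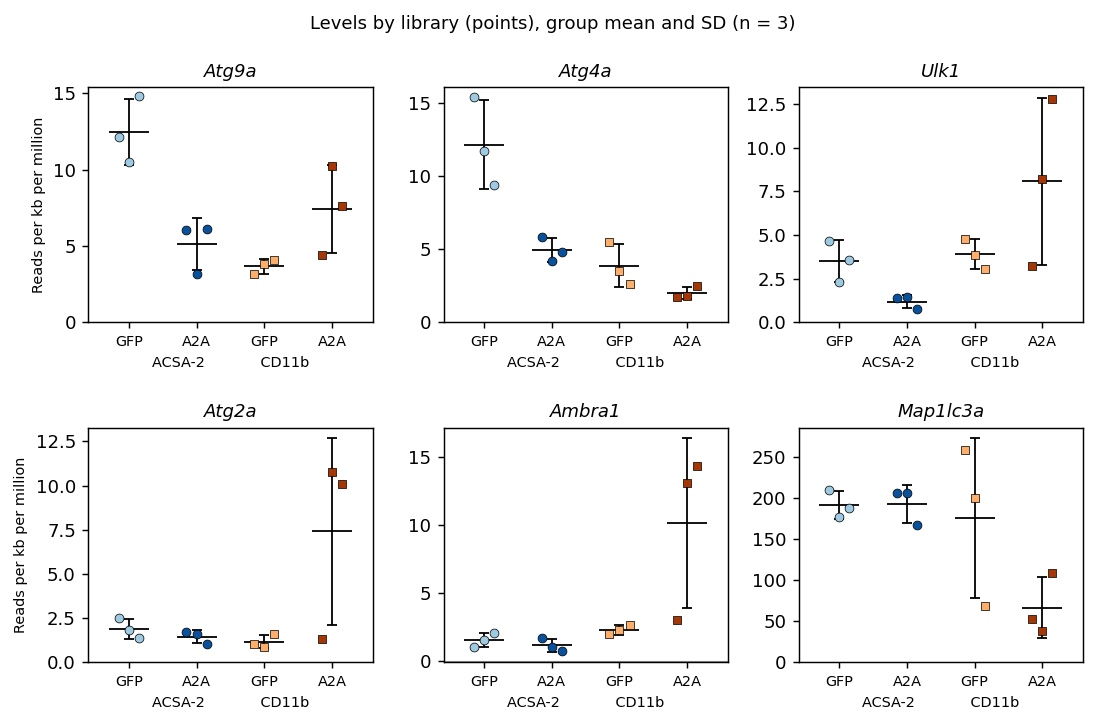
Level of 6 autophagy genes in each library (points, RPKM), with the mean and SD of each group of 3. Atg9a, Atg4a and Ulk1 are lower with AAV-A2A in ACSA-2+ cells, and the high values of Atg2a and Ambra1 in CD11b+ cells come from 2 of the 3 AAV-A2A libraries.

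Whether the vector response differed between the fractions was tested with an interaction term over the 12 libraries (log2 FC in ACSA-2 minus log2 FC in CD11b). No autophagy gene of the 36 was called by edgeR, beside 0.403% of all genes. An unadjusted p under 0.05 was seen for 11 of the 36, beside 3645 of all 18602 genes tested. The lowest adjusted p was that of Atg9a, with a difference of -2.29 (SE 0.49, adjusted p = 0.0615), followed by Ulk1 with -2.59 (SE 0.66, adjusted p = 0.0828). DESeq2 called 8 of the 36 (Ulk1, Ulk2, Ambra1, Atg2a, Atg2b, Atg9a, Atg4c and Nbr1), all with a lower log2 FC in astrocytes than in microglia. Over all genes DESeq2 called 10% in either direction, 1012 lower and 728 higher. The 5 ATG8 genes had positive differences of 0.44 to 1.43, none of them called by either tool.

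The number of calls changed with single libraries. Without A2A-2343 edgeR called 7 of the 36 genes (Ulk1, Ulk2, Pik3r4, Ambra1, Atg2a, Atg9a and Nbr1), beside 830 over all genes. Without GFP-2331 it called 2 (Ulk2 and Atg9a), beside 1286 over all genes, and without any other single library none. With all libraries 75 genes were called over all genes. With the length trend removed edgeR called none of the 36 and none of all genes, and Atg9a was at -1.88 (adjusted p = 0.179). Without the choroid-rich libraries, which left 1 CD11b control, the value of Atg9a was -2.13. Among the 76 other genes edgeR called Wdfy3, lower in AAV-A2A astrocytes and 6.85, 7.94 and 13.4 RPKM in AAV-GFP against 13, 30.8 and 27.2 RPKM in AAV-A2A microglia (difference -3.11, SE 0.51, adjusted p = 0.0438).

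The fractions were compared over all 12 libraries. Each fraction was counted in a table of its own, so a difference between fractions cannot be told apart from one between the tables. Of the 36 genes 24 were called between ACSA-2 and CD11b cells, 8 higher in astrocytes (beside 24.6% of all genes) and 16 lower (beside 29.4%), and 15 had no overlap between the 6 libraries of each fraction (beside 31.6%). The split followed the stages: all 5 ATG8 genes were higher in ACSA-2 cells, and all 6 genes of the nucleation complex and 4 of 5 of the initiation complex were higher in CD11b cells. Ranges below are the lowest, median and highest of 6 libraries. Over all genes tested the median difference was -0.13 (log2).

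Of the ATG8 family, Map1lc3b, encoding LC3B, the usual marker protein of autophagosomes, differed most over all libraries (without the choroid-rich ones it was at 1.71 and Map1lc3a at 1.76). It went from 56.1 to 85.0 RPKM (median 59.0) in ACSA-2 and from 13.4 to 21.3 RPKM (median 19.0) in CD11b libraries, without overlap (log2 difference 1.86, SE 0.19, adjusted p = 1.51e-05, edgeR). Gabarapl2 ranged from 15.2 to 23.6 RPKM (median 16.8) against 3.55 to 12.5 RPKM (median 6.5), and Gabarapl1 from 59.0 to 92.9 RPKM (median 77.8) against 20.0 to 52.9 RPKM (median 33.2). Both were apart in all libraries, with log2 differences of 1.37 (SE 0.22, adjusted p = 0.000336) and 1.1 (SE 0.2, adjusted p = 0.000865) by edgeR. Gabarap, from 165 to 218 RPKM (median 187) against 76.7 to 144 RPKM (median 126), differed less (0.77, SE 0.2, adjusted p = 0.00737, edgeR).

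Map1lc3a, from 167 to 210.0 RPKM (median 197) in ACSA-2 and from 38.4 to 259 RPKM (median 88.5) in CD11b libraries, overlapped widely (log2 difference 0.85, SE 0.33, adjusted p = 0.0446, edgeR). Without the choroid-rich libraries the CD11b values were 38.4 to 68.3 RPKM and the difference 1.76 (adjusted p = 8.02e-05), in a fit whose median over all genes was 0.26. With the length trend removed it was 0.34 (adjusted p = 0.33). The call on Gabarap was lost in both of these fits (0.61, adjusted p = 0.0595, and 0.42, adjusted p = 0.143). In AAV-GFP libraries alone Map1lc3a, Gabarap and Gabarapl1 did not pass, at 0.13, 0.54 and 0.58 (adjusted p = 0.856, 0.177 and 0.156, edgeR). In AAV-A2A libraries alone these genes passed, at 1.57, 0.99 and 1.61.

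In the nucleation complex, Uvrag, which takes VPS34 to endosomes and autophagosome maturation, differed most. It ranged from 0.623 to 1.67 RPKM (median 1.34) in ACSA-2 and from 4.18 to 14 RPKM (median 8.26) in CD11b libraries (log2 difference -2.63, SE 0.28, adjusted p = 1.7e-05, edgeR). Pik3r4, from 0.462 to 1.06 RPKM (median 0.668) against 1.84 to 9.32 RPKM (median 2.74), was also apart in all libraries (-2.51, SE 0.31, adjusted p = 5.36e-05, edgeR). Becn1 ranged from 4.71 to 10.2 RPKM (median 8.92) against 13.2 to 17.6 RPKM (median 15.4), with a difference of -0.86 (SE 0.2, adjusted p = 0.00328, edgeR). Its exon bases are covered to 43.9% by exons of Cntd1, which had at most 36 reads per library.

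The remaining nucleation genes followed. Pik3c3, the catalytic subunit VPS34, ranged from 2.34 to 6.17 RPKM (median 4.83) against 6.54 to 11.2 RPKM (median 9.13), without overlap (-0.95, SE 0.27, adjusted p = 0.0111, edgeR). Atg14 ranged from 2.35 to 5.55 RPKM (median 5.2) against 3.51 to 16.5 RPKM (median 9.73), and Ambra1 from 0.721 to 2.02 RPKM (median 1.27) against 1.94 to 14.4 RPKM (median 2.83). These 2 overlapped between the fractions (-1.03, adjusted p = 0.0211, and -1.85, adjusted p = 0.0016, edgeR). In AAV-GFP libraries alone Pik3c3, Atg14 and Ambra1 did not pass, with differences of -0.59, -0.59 and -0.58, and in AAV-A2A libraries alone Becn1 did not (-0.65, adjusted p = 0.0735, edgeR). With the length trend removed Becn1 (-0.44), Pik3c3 (-0.68) and Atg14 (-0.82) lost their calls, with adjusted p of 0.143, 0.064 and 0.0821 by edgeR, and Uvrag, Pik3r4 and Ambra1 kept theirs.

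Of the initiation complex, Ulk2 ranged from 2.43 to 4.32 RPKM (median 3.06) in ACSA-2 and from 8.58 to 60.1 RPKM (median 18.4) in CD11b libraries, without overlap (-2.71, SE 0.29, adjusted p = 2.14e-05, edgeR). Rb1cc1, encoding the FIP200 scaffold, ranged from 0.883 to 2.02 RPKM (median 1.16) against 2.59 to 4.02 RPKM (median 2.95), also without overlap (-1.28, SE 0.23, adjusted p = 0.000682, edgeR). Ulk1, from 0.764 to 4.68 RPKM (median 1.86) against 3.07 to 12.8 RPKM (median 4.34), overlapped (-1.44, SE 0.33, adjusted p = 0.00334, edgeR). Its difference was -0.15 (adjusted p = 0.836) in AAV-GFP and -2.74 (adjusted p = 0.000933) in AAV-A2A libraries. Atg13 ranged from 4.49 to 9.75 RPKM (median 6.66) against 6.68 to 15.4 RPKM (median 9.99), with -0.59 (adjusted p = 0.0449, edgeR), and passed in 3 of 12 leave-one-out fits. Atg101, which stabilises ATG13, was the only initiation gene with a positive value (0.32, adjusted p = 0.222, edgeR).

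Among the lipid supply genes, Wipi1 ranged from 6.08 to 9.27 RPKM (median 7.92) in ACSA-2 and from 2.04 to 4.9 RPKM (median 2.58) in CD11b libraries, without overlap (1.48, SE 0.23, adjusted p = 0.000227, edgeR). Its paralogue Wipi2, which recruits ATG16L1, was at -0.32 (adjusted p = 0.334, edgeR). Atg9a, from 3.12 to 14.8 RPKM (median 8.31) against 3.12 to 10.2 RPKM (median 4.24), was at 0.63 (SE 0.24, adjusted p = 0.045, edgeR). That call came from the AAV-GFP libraries, where the difference was 1.78 (adjusted p = 0.00388), and the sign was opposite in the AAV-A2A libraries (-0.51, adjusted p = 0.24). Atg2a and Atg2b were not called (-0.81 and -0.71).

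In the conjugation systems the proteases of the ATG4 family split. Atg4a ranged from 4.22 to 15.4 RPKM (median 7.61) in ACSA-2 and from 1.72 to 5.48 RPKM (median 2.52) in CD11b libraries (1.5, SE 0.25, adjusted p = 0.000425, edgeR). Atg4c, from 0.441 to 2.13 RPKM (median 0.758) against 1.68 to 5.92 RPKM (median 2.4), and Atg4d, from 3.11 to 4.11 RPKM (median 3.61) against 5.32 to 9.86 RPKM (median 6.83), went the other way (-1.60, adjusted p = 0.00307, and -0.95, adjusted p = 0.000974, edgeR). Atg4b was at 0.27 (SE 0.17, adjusted p = 0.185, edgeR). Of the 4 proteases the groups were apart in all libraries for Atg4d alone.

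Atg16l1 had the lowest p of the 36 genes. It ranged from 0.782 to 1.66 RPKM (median 1.19) in ACSA-2 and from 4.05 to 7.91 RPKM (median 6.48) in CD11b libraries (-2.31, SE 0.19, adjusted p = 3.11e-06, edgeR), and the difference was -2.32 in AAV-GFP and -2.30 in AAV-A2A libraries. Its partner Atg5 was at -0.44 (adjusted p = 0.179, edgeR), and at -0.86 (adjusted p = 0.0127) without the choroid-rich libraries. The E1 enzyme Atg7, the E2 enzymes Atg3 and Atg10, and the ubiquitin-like Atg12 were not called, with values between -0.37 and 0.47. Of these, DESeq2 called Atg3 (adjusted p = 0.0327).

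Among the receptors, Nbr1 ranged from 5.39 to 6.92 RPKM (median 6.39) in ACSA-2 and from 10 to 33 RPKM (median 13.7) in CD11b libraries, without overlap (-1.43, SE 0.2, adjusted p = 0.000131, edgeR). Tax1bp1, a ubiquitin-binding receptor, ranged from 13.4 to 22.1 RPKM (median 16.4) against 20.0 to 34.1 RPKM (median 27.2) and overlapped (-0.61, SE 0.19, adjusted p = 0.0167, edgeR). Calcoco1, from 4.67 to 9.62 RPKM (median 7.39) against 6.71 to 24 RPKM (median 10.3), was at -0.70 (adjusted p = 0.0427, edgeR). It passed in 3 of 12 leave-one-out fits and not with DESeq2 (adjusted p = 0.0502). Tax1bp1 and Calcoco1 lost their calls without the choroid-rich libraries (-0.39 and -0.30) and with the length trend removed (-0.18 and -0.25). In AAV-GFP libraries alone Nbr1 (-0.75) and Calcoco1 (-0.15) did not pass, and in AAV-A2A libraries alone Tax1bp1 (-0.40) did not. Sqstm1, from 226 to 317 RPKM (median 282) against 190.0 to 225 RPKM (median 213), was apart in all libraries by a small margin, with a difference of 0.42 called by DESeq2 (adjusted p = 0.00242) and not by edgeR (adjusted p = 0.0602). Optn was at 0.19 (SE 0.32, adjusted p = 0.633, edgeR).

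**Figure D4:**
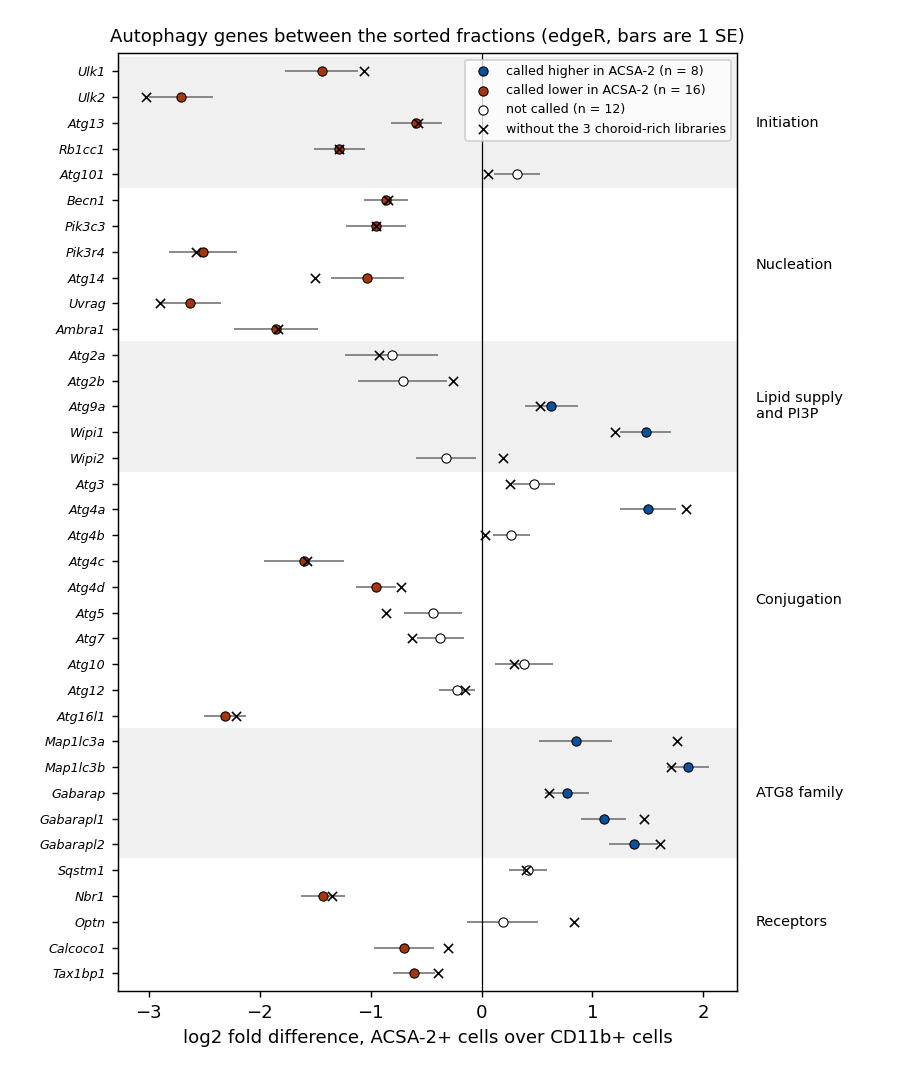
Log2 difference of ACSA-2+ over CD11b+ cells for each of the 36 genes, with 1 standard error, over 6 libraries per fraction, where blue and brown points were called by edgeR (8 higher, 16 lower) and open points were not. Crosses give the difference without the 3 choroid-rich CD11b libraries, and all 5 ATG8 genes lie right of 0 and all 6 nucleation genes left of it with both.

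Of the 24 calls, 19 were kept whichever library was left out. In 10 genes the call was also kept within AAV-GFP libraries, within AAV-A2A libraries, without the choroid-rich libraries and with the length trend removed. Of these, Map1lc3b, Gabarapl2, Wipi1 and Atg4a were higher in ACSA-2 cells and Ulk2, Rb1cc1, Pik3r4, Uvrag, Atg4d and Atg16l1 in CD11b cells. How many calls over all genes were kept in the same fits was not counted. The 19 and the 10 therefore cannot be read as particular to autophagy genes. Within AAV-GFP libraries 13 of the 36 genes were called (4968 over all genes) and within AAV-A2A libraries 23 (8557). Without the choroid-rich libraries 20 were called (9681) and with the length trend removed 17 (9081). With all libraries the 24 calls stood beside 10055 over all genes. Of the 76 other autophagy genes 19 were higher in ACSA-2 and 29 in CD11b cells, beside 24.6% and 29.4% of all genes. The fusion factors lay mainly on the CD11b side, with 1 higher and 10 lower of 15 (median -1.27), and the upstream regulators on the other, with 11 higher and 7 lower of 26 (median 0.33).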

How the data were processed

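RNA of ACSA-2+ and CD11b+ cells was amplified as full-length cDNA and sequenced as single-end reads. The authors trimmed the reads (cutadapt 1.10), aligned them to mm10 (STAR 2.5.3) and deposited counts per Ensembl gene (HTSeq 0.6.1p1, unique and unambiguous reads), so bases shared by overlapping genes and repeated sequence are under-counted. A strand setting is not given in the sources used here, and PCR duplicates are included. From these counts, edgeR 4.0.16 (TMM, filterByExpr, robust quasi-likelihood test, Benjamini-Hochberg over all tested genes) compared vectors within each table and fractions and their interaction over 12 libraries, with DESeq2 1.42.0 and limma-voom (limma 3.58.1) as alternatives, in R 4.3.3. A gene was called with adjusted p below 0.05 and a log2 FC beyond 0.32 in either direction. RPKM used exon lengths of GENCODE M21 (GRCm38). Promoter windows were RefSeq's. The fits were tested on simulated data. Figures were drawn with matplotlib 3.10.9.

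Groups came from the sample labels, and whether the 2 fractions came from the same animals is not given there, so p-values compare libraries. Members, lists and tests were chosen with earlier results of these data known. Values per library are given for members called for a vector by edgeR or DESeq2, as lowest, median and highest of 6 libraries for those called between fractions, and per library for the 3 highest and 3 lowest of each fraction. Of the other lists, genes called for a vector are named. The CD11b counts came with 25 unnamed columns, all empty.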

Additional observations from a re-analysis of the deposited data

Results flagged for a closer look

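Among the genes whose vector values had opposite signs in the fractions, 2 are given here, Atg9a because its groups did not overlap in either fraction and Wdfy3 because edgeR's interaction term called it. Atg9a was below every control in the 3 AAV-A2A astrocyte libraries and above every control in the 3 AAV-A2A microglia libraries. The difference of the responses was -2.29 (log2, ACSA-2 minus CD11b), which edgeR did not call (adjusted p = 0.0615) and DESeq2 did (adjusted p = 0.00255). Wdfy3, the aggregate adaptor ALFY, is from the list of selective factors and had a difference of -3.11 (adjusted p = 0.0438), and it passed in 2 of the 12 leave-one-out fits. In both genes the high microglia values were those of A2A-2344 and A2A-2347, the libraries in which long genes stood above short ones. With the length trend removed the difference of Atg9a was -1.88 (adjusted p = 0.179, edgeR). In that fit edgeR called none of all genes, so the call on Wdfy3 was lost.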

How the results depend on the processing

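In astrocytes the 2 genes called became 1 with the length trend removed and 0 in the joint fit of 12 libraries, and 0 to 0 when 1 library was left out. The number was 2 or 3 under DESeq2, limma-voom, RLE factors, other filters and no fold threshold. In microglia the count of 0 became 2 with DESeq2, and was 0 to 0 with 1 library left out and 0 under every other alternative run, of which those with a single library in 1 group say nothing on stability. The interaction count of 0 (75 over all genes) became 8 (1740) with DESeq2 and 0 to 7 (0 to 1286) with 1 library left out. The fraction count of 24 (10055 over all genes) became 13 (4968) in AAV-GFP libraries alone and 15 (8520) with an absolute log2 FC above 1. It was 20 to 26 (9176 to 9864) with 1 library left out. Of the genes called, the only 1 to reverse in any alternative run was Atg9a between the fractions, at -0.51 in AAV-A2A libraries. Under DESeq2 and RLE factors no gene of the 36 changed sign in the vector and fraction comparisons, and Sqstm1 did in the interaction, where it was near 0. Stage medians moved by less than the spread between libraries in 87 of 96 alternatives, which were DESeq2, RLE factors and fits with 1 library left out. These medians were not compared with the length trend removed or with more than 1 library left out. With lengths taken as the mean of transcripts, the 3 highest genes were the same in both fractions, and 8 of the 10 highest. No paired analysis was possible because no 2 groups share replicate numbers. With 3 libraries a group, a p above the threshold does not show that a gene kept its level.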
